A study of Mus musculus with 16 samples.

Results

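Interferon-stimulated genes, the genes that cells switch on when an interferon binds its receptor, were followed through DN3 thymocytes of the *Lmo2*-transgenic model of T-cell acute lymphoblastic leukemia. They were 45 genes fixed by symbol, of which 44 are listed in both count tables among 22114 protein-coding genes. *Mx2* is in neither table. A filter on low counts passed 43 of the 44 in the sorted cells, where *Ifi44* did not pass, and all 44 in the genotypes. DN3 cells are CD4-CD8-CD25+CD44- T-cell progenitors, and their poly-A RNA was sequenced. The sorted experiment has 3 GFPhi and 3 GFPlo libraries. They came from *H2B-GFP*;*Lmo2*Tg mice, 2 months old, which received doxycycline for 6 weeks and then none for 2 weeks. GFPhi cells, which have divided little, keep the H2B-GFP label, and GFPlo cells have diluted it. The genotype experiment has total DN3 cells of 6-week-old mice, with 3 libraries of wild-type mice and 2 each of *p21*-/- mice, *Lmo2*Tg mice and mice with both, *Lmo2*Tg;*p21*-/-. All mice are C57BL/6, *Lmo2* is driven by the *CD2* promoter in the transgenic mice, and both sorted groups carry the transgene. RNA came from pools of several mice, so the spread between libraries is a spread between pools. The *Lmo2*Tg columns carry no usable replicate number and are called libraries A and B here.

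Type I interferons signal through IFNAR1 and IFNAR2 to a complex that holds STAT2 and IRF9 and binds the interferon-stimulated response element (ISRE). Interferon gamma signals through IFNGR1 and IFNGR2 to the gamma-activated site (GAS) and induces *Irf1*. Many of the products restrict viruses, such as the OAS proteins, which make the activator of RNase L, the IFIT proteins, which bind foreign RNA, and the GBP and IRG GTPases, which attack vacuoles that hold pathogens. Low levels of many of these genes are also kept up in cells that meet no infection.

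Total counts were 26861394 to 31106213 per library in the sorted experiment and 13864936 to 16837667 in the genotypes, so that 3 counts are worth 0.0966 to 0.112 CPM and 0.176 to 0.222 CPM (CPM, counts scaled to the library's size with TMM factors). *Cdkn1a*, which encodes p21, was at 36.5 to 49.0 CPM in wild-type, 14.3 to 17.7 in *p21*-/-, 26.3 to 32.8 with the transgene alone and 3.50 to 4.35 in *Lmo2*Tg;*p21*-/- libraries, and *Lmo2* was at no more than 0.306 CPM without and at 41.4 to 107 CPM with the transgene. All 16 markers of DN3 cells had a mean of at least 1 CPM in each group, among them *Il2ra*, which encodes CD25, at 1411 CPM or more. GFPhi replicate 3 stood apart on the second principal component (27.0% of the variance) from the other 5 sorted libraries and had 285 CPM of *Lmo2*, against 29.5 to 53.8 CPM in them. Its *Cdkn1a* was at 6.56 CPM, below the 3 GFPlo libraries (12.02, 11.1 and 8.08 CPM), while GFPhi replicates 1 and 2 were at 35.8 and 29.9 CPM. Results of the sorted experiment are therefore given with and without it. Fewer cells of a type and less RNA per cell cannot be told apart in these bulk samples.

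The elements through which interferon signals reach these genes were looked up in their promoters, because they show which members carry the binding letters of each arm. RefSeq promoter windows on GRCm38.p6, from 250 bases before to 50 bases after a start site, were found for 34 of the 45 members. The ISRE core was searched as GAAANNGAAA on both strands, and the GAS core as TTCNNNGAA, which reads the same on both strands. A base may count in both. At least 1 ISRE core was in the windows of 19 of the 34 members (55.9%), against 3.99% of all 27025 genes with a window. The GAS core was in those of 12 members (35.3%), against 9.55% of all genes. One match is printed for called members that hold one away from a window's edge, with the matched letters in capitals, on the strand that reads the motif as searched, and both matches for *Irgm2* and its neighbour *Igtp*:
Irf1 GAS (chr11:53769914-53769943, + strand): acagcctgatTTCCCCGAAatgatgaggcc
Irgm2 GAS (chr11:58214892-58214921, + strand): aactagccatTTCCAGGAActgaaactgaa
Igtp GAS (chr11:58199501-58199530, + strand): aactagccatTTCTAGGAActgaaactgaa
Irgm2 ISRE (chr11:58214903-58214932, + strand): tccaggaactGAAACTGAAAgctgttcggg
Igtp ISRE (chr11:58199512-58199541, + strand): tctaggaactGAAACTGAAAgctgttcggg
Stat2 ISRE (chr10:128270266-128270295, - strand): ctagggaaagGAAACTGAAAccagggtgcg
Ifit1 ISRE (chr19:34640794-34640823, - strand): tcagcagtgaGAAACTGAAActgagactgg
Oas3 ISRE (chr5:120777715-120777744, - strand): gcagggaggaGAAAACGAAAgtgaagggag
Oas1a ISRE (chr5:120907520-120907549, - strand): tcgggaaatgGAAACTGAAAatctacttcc
Ddx58 ISRE (chr4:40239804-40239833, + strand): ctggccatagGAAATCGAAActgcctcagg
Eif2ak2 ISRE (chr17:78882535-78882564, - strand): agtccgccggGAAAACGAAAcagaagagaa
Bst2 ISRE (chr8:71537577-71537606, - strand): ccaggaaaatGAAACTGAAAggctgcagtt
Gbp7 ISRE (chr3:142530273-142530302, - strand): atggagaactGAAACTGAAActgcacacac
Trim30a ISRE (chr7:104465210-104465239, + strand): caggaactgaGAAAAAGAAActaaagaact

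The *Irgm2* and *Igtp* windows of 30 bases differ by 1 base for each element, and the annotated exons of these genes share 162 bases, so reads may be split between them. *Irf1* has the GAS core and no ISRE core in its window. *Cmpk2*, *Samd9l*, *Irf7*, *Irf9*, *Sp100*, *Dtx3l*, *Ifi44*, *Oasl1*, *Oasl2* and *Xaf1* have a window with neither core. A match is a description of the letters and not a binding site, and no match says nothing of a factor.

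In wild-type DN3 cells most members were expressed. Per kilobase of annotated exon, *Bst2*, which tethers budding virions to the cell, was highest at 110.0 ± 7.58 CPM per kb (SD, n = 3), and its lowest library (103 CPM per kb) was above every library of the members that followed. *Dtx3l* (36.6 ± 0.793), an E3 ubiquitin ligase, *Irf1* (28.0 ± 3.02), *Igtp* (22.7 ± 1.41) and *Gbp7* (20.8 ± 1.57) came next, and of these neighbours *Igtp* and *Gbp7* overlapped between libraries. The lowest were *Oas2* (1.335 ± 0.215), *Ifi44* (1.30 ± 0.234), *Mx1* (0.871 ± 0.0904) and *Ifit3* (0.823 ± 0.235), where *Oas2* overlapped with *Ifi44* and *Mx1* with *Ifit3*, but *Ifi44* (at least 1.03) not with *Mx1* (at most 0.924). The median over the 44 members was 6.31 CPM per kb, beside 7.65 over the 11814 genes tested with a known length, and 21 members lay above the latter.

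The first question was what the *Lmo2* transgene changes. Of the 44 members, 18 differed between *Lmo2*Tg and wild-type DN3 cells, and they went both ways. *Cmpk2*, *Oas2*, *Irf1*, *Oas3*, *Samd9l*, *Irf7*, *Sp100*, *Trim30a* and *Irf9* rose, and *Iigp1*, *Ifi44*, *Irgm2*, *Ifih1*, *Zbp1*, *Gbp7*, *Dtx3l*, *Bst2* and *Parp9* fell. These 18 are 40.9% of the members tested, beside 36.6% of the 11840 genes tested (19.7% higher and 16.9% lower), at a p under 0.05 in the quasi-likelihood test of edgeR, adjusted over all genes after Benjamini and Hochberg. The share of members called was thus near that of all genes. The median log2 fold change was 0.02 over the members and -0.01 over all genes.

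**Figure D1:**
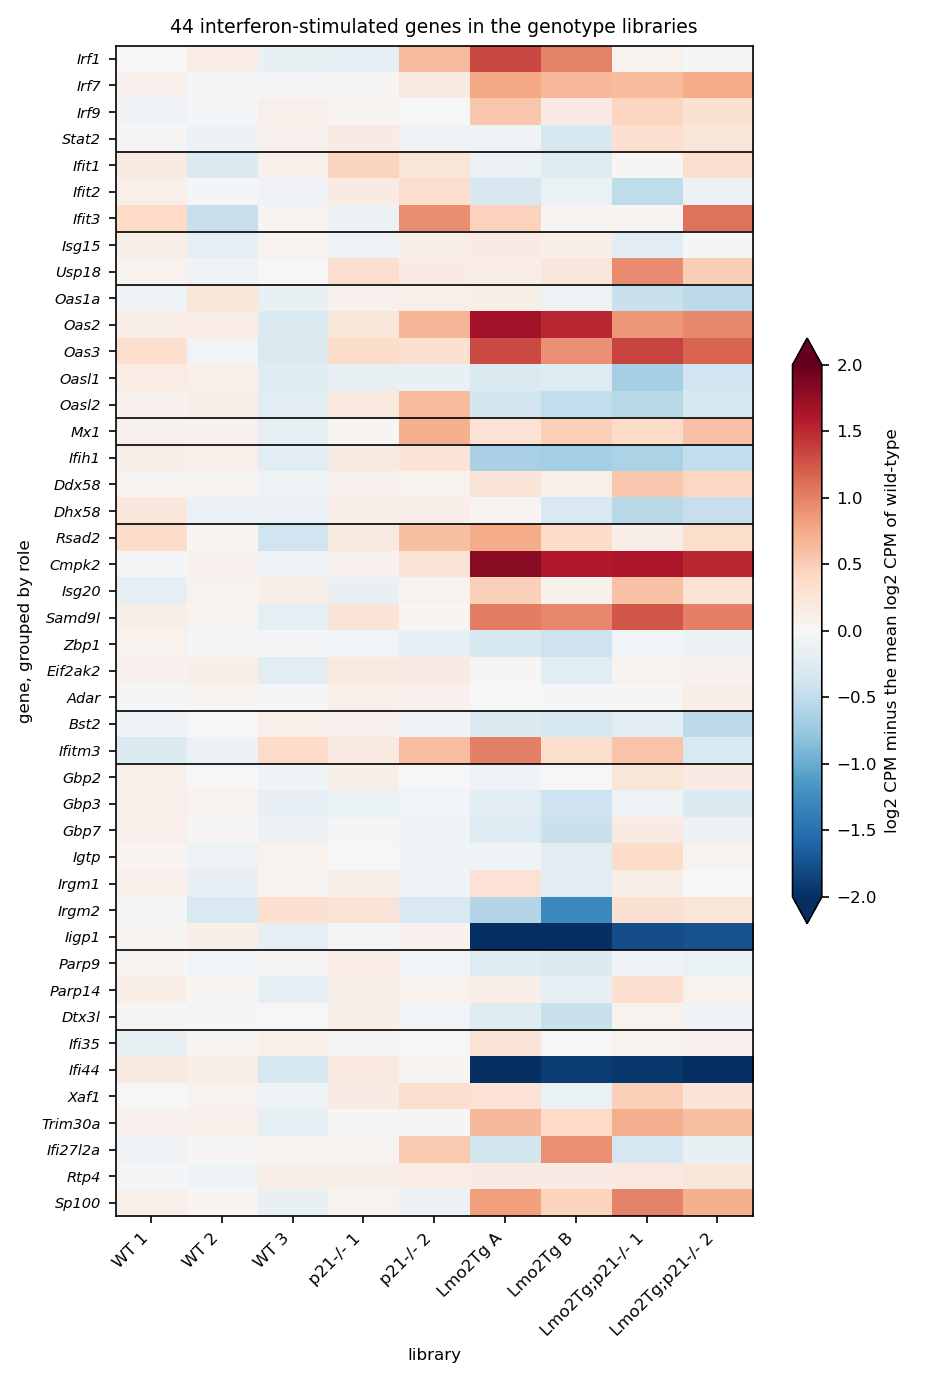
Each row is 1 of the 44 members tested, in blocks by role, and each column is 1 of the 9 genotype libraries. Color gives log2 CPM minus the mean log2 CPM of the 3 wild-type libraries, cut at -2 and 2; *Cmpk2*, *Oas3* and *Samd9l* are high and *Iigp1* and *Ifi44* low in all 4 transgenic libraries, while *Irf1* is high in both *Lmo2*Tg libraries and near wild-type in both *Lmo2*Tg;*p21*-/- libraries.

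Among the transcription factors, 3 of 4 rose. *Irf1* (ENSMUSG00000018899, chromosome 11 from 53770014 to 53778374 on GRCm38) was at 111, 124 and 99.7 CPM in wild-type and at 279 and 220.5 CPM in *Lmo2*Tg libraries A and B. Both transgenic libraries lay above all wild-type libraries, 2.24-fold on average (log2 fold change 1.16, standard error 0.19, adjusted p = 0.00094). *Irf7*, the factor that amplifies type I interferon production, rose 1.64-fold, from 15.5 to 16.9 CPM in wild-type to 27.2 and 25.3 CPM. *Irf9* rose 1.28-fold (adjusted p = 0.023), a call that was lost without *Lmo2*Tg library A (log2 fold change 0.17), wild-type replicate 1 (0.32) or wild-type replicate 2 (0.35). *Stat2*, the partner of IRF9, was at 53.5 to 61.6 CPM in wild-type and at 46.0 and 55.0 CPM in *Lmo2*Tg libraries, which overlap (-0.20, adjusted p = 0.18).

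Antiviral effectors gave the largest rises. *Cmpk2* (ENSMUSG00000020638, chromosome 12 from 26469204 to 26479837), a mitochondrial nucleotide kinase, was at 6.86, 7.44 and 6.65 CPM in wild-type and at 24.4 and 21.3 CPM in *Lmo2*Tg libraries. It rose 3.27-fold without overlap (log2 fold change 1.71, standard error 0.13, adjusted p = 4.6e-06). Its neighbour *Rsad2*, which encodes viperin, was at 5.99 to 10.23 CPM and at 13.2 and 10.19 CPM, and its libraries overlapped (0.53, adjusted p = 0.090). *Samd9l*, a translation inhibitor, rose from 52.7, 50.3 and 42.8 CPM to 98.0 and 94.1 CPM (1.98-fold, adjusted p = 6.4e-05). Of the 5 OAS genes, 2 rose and 3 were not called. *Oas2* was at 6.44, 6.55 and 4.84 CPM in wild-type and at 18.8 and 16.8 CPM in *Lmo2*Tg libraries, 3.00-fold higher (1.58, standard error 0.17, adjusted p = 6.5e-05). *Oas3* rose 2.15-fold, whereas *Oas1a* (log2 fold change 0.002), *Oasl1* (-0.28) and *Oasl2* (-0.43, adjusted p = 0.061) did not pass the test. *Sp100*, a nuclear body protein, and *Trim30a* rose 1.57-fold and 1.44-fold.

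The GBP and IRG GTPases held 3 of the 9 falls and no rise among 7 members. *Iigp1* (ENSMUSG00000054072, chromosome 18 from 60376027 to 60392634) was at 11.9, 12.6 and 10.2 CPM in wild-type and at 2.07 and 1.92 CPM in *Lmo2*Tg libraries. That is 5.78-fold lower, the largest change among the members (log2 fold change -2.53, standard error 0.19, adjusted p = 3.9e-06). *Irgm2* was at 19.2, 15.8 and 24.3 CPM in wild-type and at 13.0 and 7.93 CPM in *Lmo2*Tg libraries (-0.92, standard error 0.25, adjusted p = 0.014), and without library B the log2 fold change was -0.61 with an adjusted p of 0.11. *Gbp7* fell 1.275-fold, and *Gbp2*, *Gbp3*, *Igtp* and *Irgm1* were not called, with log2 fold changes from -0.31 to 0.05. *Ifi44* fell 4.13-fold, from 8.89, 8.65 and 6.29 CPM to 1.70 and 2.12 CPM. *Ifih1*, which encodes the RNA sensor MDA5, fell 1.59-fold to 27.4 and 26.8 CPM from 36.5 to 46.4 CPM, while the sensors *Ddx58* (RIG-I) and *Dhx58* (LGP2) were not called (0.18 and -0.12). *Dtx3l* and *Parp9*, which work as a pair and whose opposite strands share 458 exon bases, fell by 0.34 and 0.28 on the log2 scale, and *Parp14* was not called (-0.02).

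Among the ISG15 system, the IFIT family and *Mx1*, 0 of 6 members passed the test in edgeR, DESeq2 or limma-voom, and 0 had a p under 0.05 in edgeR before adjustment. *Isg15*, a ubiquitin-like modifier, was at 15.6, 12.6 and 15 CPM in wild-type and at 16.1 and 15.6 CPM in *Lmo2*Tg libraries (log2 fold change 0.14, adjusted p = 0.46). *Ifit1*, *Ifit2* and *Ifit3* had log2 fold changes of -0.20, -0.23 and 0.22, with adjusted p from 0.20 to 0.73. *Usp18*, which removes ISG15 (0.18), *Mx1* (0.38), *Adar* (-0.01), *Eif2ak2* (-0.09), *Ifitm3* (0.68, adjusted p = 0.12) and *Rtp4* (0.16) were not called either. The remaining members, *Isg20*, *Ifi35*, *Xaf1* and *Ifi27l2a*, had log2 fold changes from 0.09 to 0.42 and were not called. *Bst2* fell from 92.9, 98.5 and 106.5 CPM to 81.7 and 79.7 CPM (-0.30, adjusted p = 0.044), a call lost in 4 of the 5 fits that left out a library, with -0.31 without *Lmo2*Tg library A, -0.28 without library B, -0.30 without wild-type replicate 2 and -0.24 without wild-type replicate 3.

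The count moved between 12, without *Lmo2*Tg library B, and 19, without wild-type replicate 3. Calls of *Cmpk2*, *Oas2*, *Irf1*, *Oas3*, *Samd9l*, *Irf7*, *Sp100*, *Trim30a*, *Iigp1*, *Ifi44* and *Ifih1* held in each of these fits and under the other scaling, filters and tools. Of these 11, *Cmpk2*, *Oas2*, *Irf1*, *Oas3*, *Iigp1* and *Ifi44* also passed a fold of 2. *Zbp1*, *Gbp7*, *Dtx3l* and *Parp9* lost theirs without 1 or more libraries, each of them without *Lmo2*Tg library B (log2 fold changes of -0.32, -0.26, -0.25 and -0.26). Among called members with a promoter window, the ISRE core was in 2 of 8 that rose (*Oas3* and *Trim30a*). It was in 4 of 6 that fell (*Ifih1*, *Bst2*, *Gbp7* and *Irgm2*). The GAS core was in 1 of the 8 and 3 of the 6. *Oas2*, *Iigp1*, *Zbp1* and *Parp9* had no window, and these counts are too small to compare the directions. The 10 markers of plasmacytoid dendritic cells, the main producers of type I interferon, were summed, and 6 had a mean of at least 1 CPM in either group. The sums were 782 to 891 CPM in wild-type and 277 to 389 CPM in *Lmo2*Tg libraries. The defining genes *Siglech* and *Klk1* were at 0 in *Lmo2*Tg. In GFPlo libraries *Siglech*, *Klk1* and *Cd209d* were at 0 beside sums of 579 to 633 CPM, so a high sum can occur without them. *Ccr9* of this list is also in that of later thymocytes. The 10 markers of earlier progenitors summed to 102 to 130 CPM and 272 to 393 CPM, and the part of either list in these results was not tested.

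The same question was asked where p21 is absent, in other libraries. Between *Lmo2*Tg;*p21*-/- and *p21*-/- DN3 cells 17 of 44 members differed (38.6%, beside 30.7% of all genes). Of these, 9 rose (16.3% of all genes did) and 8 fell (14.4%). The median log2 fold change was 0.04 over the members and -0.004 over all genes. *Cmpk2* was at 7.39 and 8.42 CPM in *p21*-/- and at 21.4 and 19.9 CPM in *Lmo2*Tg;*p21*-/- libraries, 2.61-fold higher (1.38, standard error 0.14, adjusted p = 4.4e-05). *Samd9l* rose 1.97-fold, from 57.7 and 50 CPM to 114 and 97.8 CPM, and *Oas3* 1.90-fold, from 12.4 and 11.96 CPM to 24.8 and 21.6 CPM. *Ifi44* fell 4.51-fold, from 9.03 and 8.17 CPM to 2.07 and 1.75 CPM. *Iigp1* fell 3.44-fold, from 11.2 and 12.2 CPM to 3.35 and 3.44 CPM.

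Of the 18 members called with p21 present and the 17 called with p21 absent, 11 were called in both in the same direction, which is 61.1% of the former and 64.7% of the latter. Over all genes the shares were 53.2% and 63.3%. The 7 that rose in both were *Cmpk2*, *Irf7*, *Irf9*, *Oas3*, *Samd9l*, *Sp100* and *Trim30a*, and the 4 that fell in both were *Bst2*, *Ifi44*, *Ifih1* and *Iigp1*. No member was called in opposite directions. The sign was shared by 31 of 44 members (70.5%) and by 72.6% of all genes tested. These comparisons share no library, but the spread was estimated over all 9 libraries.

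Called with p21 absent and not with p21 present were *Usp18* (0.48, from 17.9 and 15.8 CPM to 27.2 and 19.9 CPM) and *Ddx58* (0.39), which rose, and *Oasl2*, *Dhx58*, *Oas1a* and *Ifit2*, which fell. *Oasl2* was at 20.8 and 28.1 CPM in *p21*-/- and at 12.4 and 14.6 CPM in *Lmo2*Tg;*p21*-/- libraries, 1.80-fold lower without overlap (-0.85, standard error 0.18, adjusted p = 0.0042). *Dhx58* fell by 0.64 and *Oas1a* by 0.58 on the log2 scale, and *Ifit2* fell by 0.56, from 33.9 and 38.8 CPM to 21.3 and 28.0 CPM. None of these differed in the test of the interaction. Leaving out *Lmo2*Tg;*p21*-/- replicate 1 or *p21*-/- replicate 2 left 11 members called each, and the call of *Usp18* was lost in both (0.23 and 0.39) and without *p21*-/- replicate 1 (0.57). *Irf9* (0.27 to 0.395) and *Oas1a* (-0.62 to -0.55) lost theirs in each of the 4 fits without 1 library, *Dhx58* in 3, and *Ifit2*, *Ddx58* and *Bst2* in 2. The calls of *Cmpk2*, *Samd9l*, *Oas3*, *Sp100*, *Trim30a*, *Irf7*, *Ifi44*, *Iigp1*, *Oasl2* and *Ifih1* held in all 4. *Isg15* was at 13.5 and 15.5 CPM and at 12.3 and 14.01 CPM, which overlap (-0.14, adjusted p = 0.51).

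**Figure D2:**
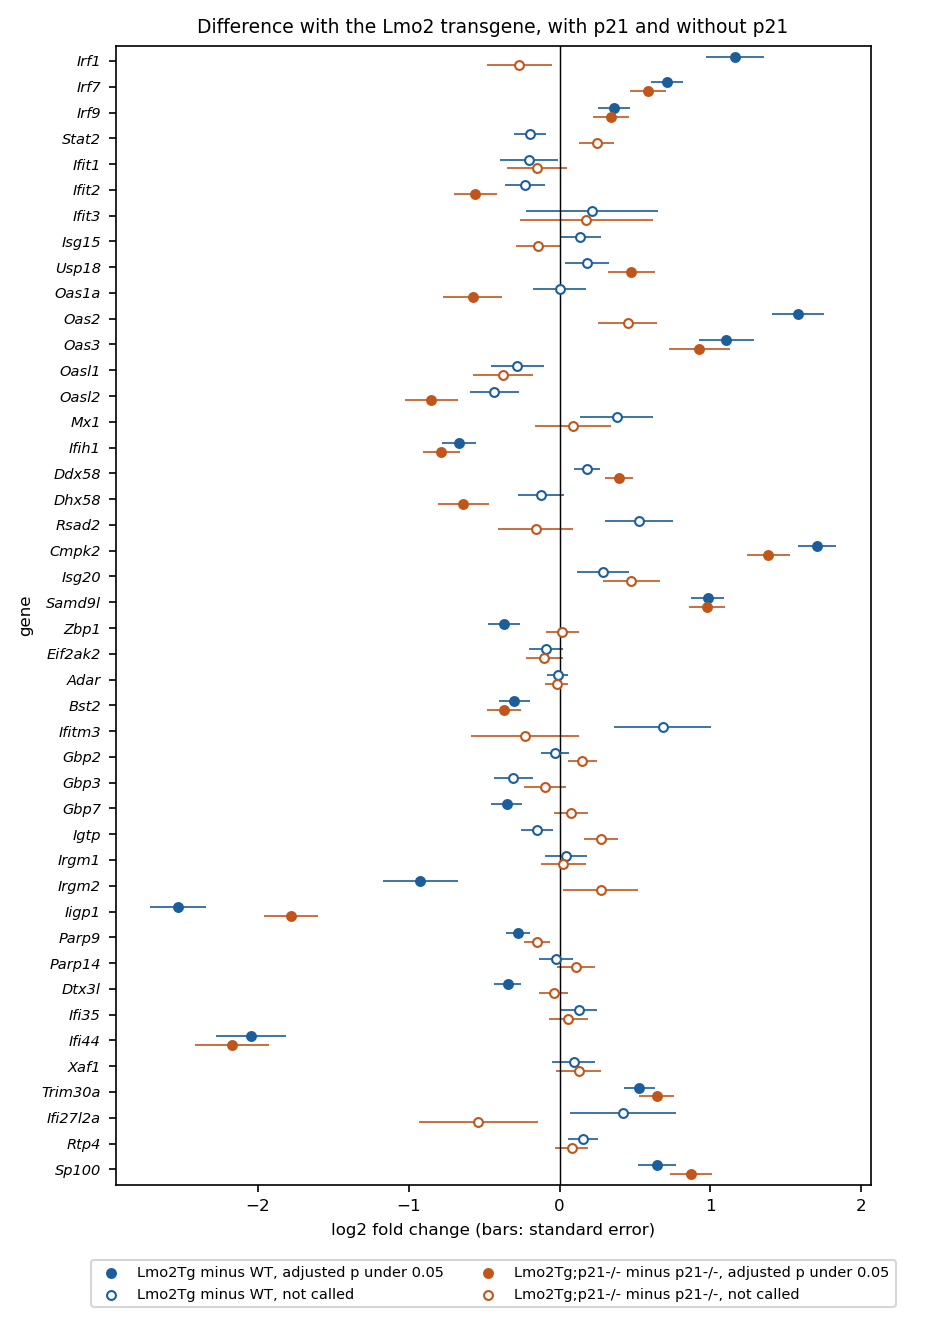
The horizontal axis is the log2 fold change with its standard error as bars and each row is 1 of the 44 members. Blue points are *Lmo2*Tg minus wild-type and orange points *Lmo2*Tg;*p21*-/- minus *p21*-/-, filled where the adjusted p is under 0.05; *Samd9l* lies at 0.98 in both, and *Irf1* at 1.16 in the first and -0.27 in the second.

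Loss of p21 in mice without the transgene changed no member that could be called. Between *p21*-/- and wild-type DN3 cells 0 of 44 members passed in edgeR, DESeq2 or limma-voom, beside 0.110% of all genes in edgeR. Before adjustment 2 members passed 0.05 in edgeR, *Oas2* with a log2 fold change of 0.46 and *Oasl2* with 0.42, and the adjusted p of both was 0.98. The log2 fold changes ran from -0.16 (*Oasl1*) to 0.46, and 36 of 44 were above 0, with a median of 0.089 over the members and -0.001 over all genes. The SD of a library's median over the members around its group was 0.077 on the log2 scale in this experiment, so that the shift is near the spread between libraries. *Isg15* was at 13.5 and 15.5 CPM in *p21*-/- libraries, within the wild-type range of 12.6 to 15.6 CPM.

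Loss of p21 in transgenic cells was asked about in *Lmo2*Tg;*p21*-/- against *Lmo2*Tg. *Irf1* fell, and *Irgm2* and *Stat2* rose, and the other 41 members were not called. The 3 are 6.82% of the members, beside 6.94% of all genes (3.35% higher and 3.59% lower). *Irf1* was at 279 and 220.5 CPM in *Lmo2*Tg and at 116 and 109 CPM in *Lmo2*Tg;*p21*-/- libraries, 2.22-fold lower without overlap (-1.15, standard error 0.22, adjusted p = 0.014). *Irgm2* was at 13.0 and 7.93 CPM and at 24.0 and 23.1 CPM, 2.25-fold higher (1.17, standard error 0.26, adjusted p = 0.026). *Stat2* was at 55.0 and 46.0 CPM and at 73.1 and 68.4 CPM, 1.40-fold higher (0.49, standard error 0.12, adjusted p = 0.035). These 3 calls depend on single libraries. No member was called without *Lmo2*Tg;*p21*-/- replicate 1, and 1 was without replicate 2, which was none of the 3. Without *Lmo2*Tg library A, *Irf1* was at -0.98 with an adjusted p of 0.051, and without library B, *Irgm2* was at 0.855 and *Stat2* at 0.36 and neither was called.

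The uncalled members with the lowest adjusted p, up to 0.078, are given next. Their groups did not overlap, nor did those of other uncalled members such as *Isg15* (-0.27, adjusted p = 0.29) and *Adar* (0.08). Such gaps are common between groups of 2 libraries, and their share over all genes was not counted. *Iigp1* was at 2.07 and 1.92 CPM in *Lmo2*Tg and at 3.35 and 3.44 CPM in *Lmo2*Tg;*p21*-/- libraries (log2 fold change 0.77, adjusted p = 0.060). *Oas2* was at 18.8 and 16.8 CPM and at 10.85 and 11.5 CPM (-0.67, adjusted p = 0.057). *Dtx3l* (0.34), *Gbp7* (0.38), *Igtp* (0.38) and *Usp18* (0.55) had adjusted p from 0.060 to 0.078. The median was 0.11 over the members and 0.02 over all genes.

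*Irf1* was the 1 member of 44 (beside 1.38% of all genes) for which the effect of the transgene differed with p21. It was at 98.0 and 173 CPM in *p21*-/- libraries, a wider gap than within the other groups, and at 116 and 109 CPM in *Lmo2*Tg;*p21*-/- libraries. The transgene went with a log2 fold change of 1.16 with p21 and of -0.27 without it. The interaction was -1.43 (standard error 0.29, adjusted p = 0.043 in edgeR). The adjusted p was above 0.05 in 7 of the 9 fits without 1 library, where the interaction ran from -1.78 to -0.96, the latter without *p21*-/- replicate 2. The call was also lost in limma-voom (-1.37, adjusted p = 0.060). *Irgm2* (1.20, adjusted p = 0.11) and *Oas2* (-1.13, adjusted p = 0.068) had the next largest interactions and were not called.

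**Figure D3:**
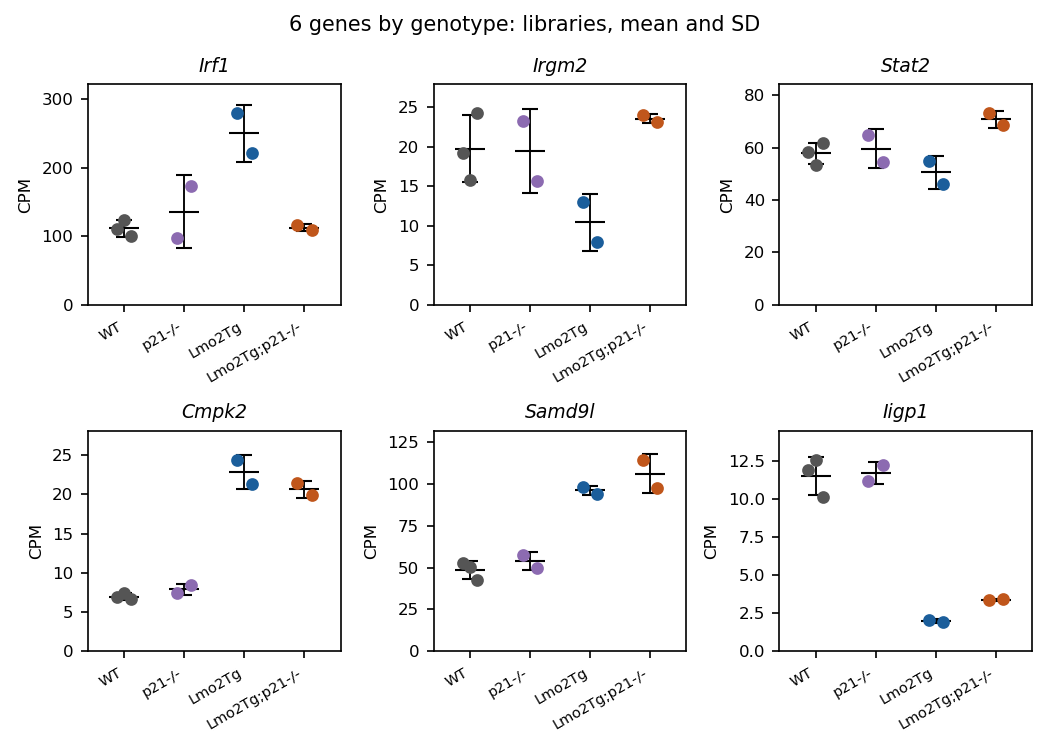
Points are single libraries in CPM for 6 members, by genotype, and the bars give the mean and SD. *Irf1* is above 200 CPM in the *Lmo2*Tg libraries alone, *Irgm2* is lowest there, and *Cmpk2*, *Samd9l* and *Iigp1* separate transgenic from other libraries with or without p21.

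Interferons and their receptors were measured too. Of 21 interferon genes listed, 4 had a count in any library of the genotype experiment, and the highest count was 77, of *Ifng*, which is interferon gamma. *Ifng* was singled out after its values were seen. It was at 1.59, 1.84 and 0.181 CPM in wild-type, 1.41 and 4.05 CPM in *p21*-/-, 2.07 and 5.27 CPM in *Lmo2*Tg and 0.785 and 1.63 CPM in *Lmo2*Tg;*p21*-/- libraries. *p21*-/- replicate 2, the higher of its pair for *Irf1*, was also the higher for *Ifng*, and of the *Lmo2*Tg libraries B was the higher for *Ifng* and A for *Irf1*. *Ifng* was called in no comparison, and its part in the level of *Irf1* was not tested. *Ifngr1*, a receptor chain for interferon gamma, was at 348 to 378 CPM in wild-type and at 233 and 169 CPM in *Lmo2*Tg libraries and fell by 0.86 on the log2 scale (adjusted p = 0.00073), while *Ifngr2*, the other chain, rose by 0.63 (adjusted p = 0.013). Both also changed between *Lmo2*Tg;*p21*-/- and *p21*-/- cells, by -0.67 and 0.55. The chains *Ifnar1* and *Ifnar2* had log2 fold changes of 0.08 each in *Lmo2*Tg against wild-type and were not called, and in *Lmo2*Tg;*p21*-/- against *p21*-/- *Ifnar2* rose by 0.32 (adjusted p = 0.024) and *Ifnar1* was not called (0.14). A list of 56 further interferon-stimulated genes, of which 44 were tested, held 7 that rose and 10 that fell in *Lmo2*Tg against wild-type, where 36.6% of all genes were called. It held 8 and 5 in *Lmo2*Tg;*p21*-/- against *p21*-/- (30.7% of all genes), 1 and 0 in *Lmo2*Tg;*p21*-/- against *Lmo2*Tg (6.94%) and 0 in edgeR in *p21*-/- against wild-type (0.110%).

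The question in the sorted experiment was how cells that divide little differ from cells that divide often. Of 43 members, 6 differed between GFPhi and GFPlo cells. *Irf1* and *Stat2* rose and *Oas2*, *Oasl2*, *Ifit1* and *Eif2ak2* fell. These are 13.95% of the members, beside 14.9% of the 11581 genes tested (5.37% higher and 9.49% lower). *Eif2ak2* (ENSMUSG00000024079, chromosome 17 from 78852564 to 78882573), which encodes the kinase PKR, was at 74.6, 79.1 and 80.4 CPM in GFPlo and at 51.9, 50.8 and 49.7 CPM in GFPhi libraries. The groups lay far apart relative to their spread, with 1.54-fold less in GFPhi (log2 fold change -0.62, standard error 0.06, adjusted p = 0.0032). The median log2 fold change of all 615 genes tested on its chromosome was -0.15, beside 0.015 over all genes. *Oas2* was at 17.4, 13.1 and 10.1 CPM and at 2.61, 4.20 and 2.68 CPM, 4.27-fold lower (-2.09, standard error 0.29, adjusted p = 0.0097). *Oasl2* was at 18.6, 12.4 and 14.8 CPM and at 7.02, 7.47 and 5.85 CPM, 2.25-fold lower (-1.17, adjusted p = 0.015). *Ifit1* fell 2.21-fold, from 6.29, 3.60 and 4.77 CPM to 2.46, 2.15 and 2.01 CPM. *Irf1* was at 134.7, 121 and 114.5 CPM in GFPlo and at 172, 167.5 and 163 CPM in GFPhi libraries, 1.36-fold higher (0.44, standard error 0.07, adjusted p = 0.016). *Stat2* was at 69.8, 66.3 and 62.9 CPM and at 80.1, 80.0 and 96.0 CPM, 1.29-fold higher (0.36, adjusted p = 0.049). None of these 6 overlapped between the groups, and neither did uncalled members such as *Ifit2*, *Samd9l* and *Iigp1*, so this does not set the 6 apart. The share of all genes without overlap was not counted. Marker lists of earlier progenitors, B lineage, plasmacytoid and conventional dendritic cells, NK cells and innate lymphocytes, and thymic epithelium separated the groups. Those of later thymocytes, macrophages and monocytes, granulocytes, gamma-delta T cells, erythroid cells, and stroma and endothelium overlapped. Markers of plasmacytoid dendritic cells summed to 579 to 633 CPM in GFPlo and to 485.5, 498 and 416 CPM in GFPhi libraries. *Siglech*, *Klk1* and *Cd209d* of this list were at 0 in GFPlo, which had the higher sum. Those of earlier progenitors summed to 542 to 611 and 289 to 472 CPM. Those of NK cells and innate lymphocytes summed to 247 to 294 and 313.5 to 743 CPM. The part of these lists in these results was not tested.

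**Figure D4:**
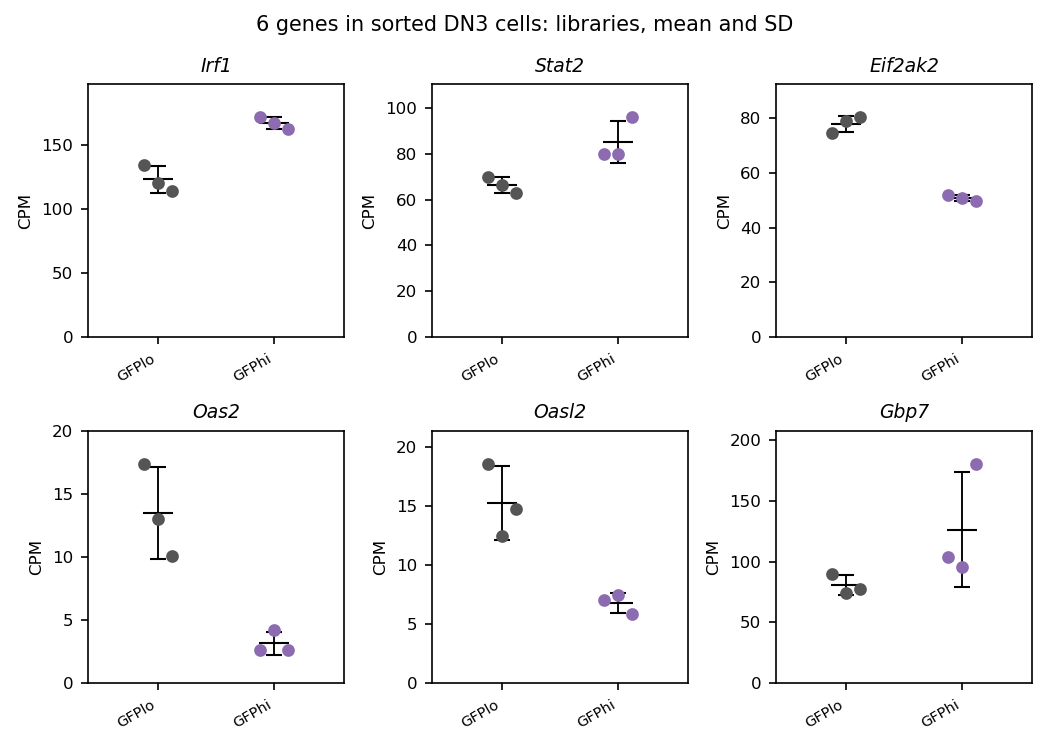
Points are the 3 GFPlo and 3 GFPhi libraries in CPM for 6 members, and the bars give the mean and SD. *Irf1* and *Stat2* are higher and *Eif2ak2*, *Oas2* and *Oasl2* lower in GFPhi libraries, and for *Gbp7* GFPhi replicate 3 at 180.2 CPM lies far above the other 2.

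Single libraries set how many members passed, and GFPhi replicate 3 also the share of all genes called. Without GFPhi replicate 3, 15 of 43 members were called (34.9%, beside 41.3% of the 11745 genes then tested). The 6 named above were among them, and *Usp18*, *Samd9l*, *Parp14*, *Sp100* and *Gbp7* rose as well, while *Iigp1*, *Rsad2*, *Ifih1* and *Ifit2* fell. *Usp18* was at 37.4, 18.02 and 16.4 CPM in GFPlo and at 57.9, 50.9 and 24.55 CPM in GFPhi libraries, and its difference on the log2 scale was 0.89 (adjusted p = 0.21) over 6 libraries and 1.19 (adjusted p = 0.026) over 5. *Rsad2* was at 9.99, 6.29 and 6.70 CPM and at 4.67, 4.81 and 2.53 CPM. There were 8 calls without GFPlo replicate 1, 3 without GFPhi replicate 2, and 2 without each of GFPlo replicate 2, GFPlo replicate 3 and GFPhi replicate 1. The share of all genes called was not counted for these, so they cannot be read as particular to the members. The call of *Eif2ak2* held in all 6 of these fits and that of *Oas2* in 5, with -2.11 and an adjusted p of 0.058 without GFPlo replicate 2. Without single libraries *Irf1* lost its call in 4 fits (0.39 to 0.44), *Stat2* and *Ifit1* in 5 and *Oasl2* in 2, each in the same direction. With the replicate number as a block, these 4 were not called. *Oas2* (-2.09, adjusted p = 0.045) and *Eif2ak2* (-0.62, adjusted p = 0.041) kept their calls.

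**Figure D5:**
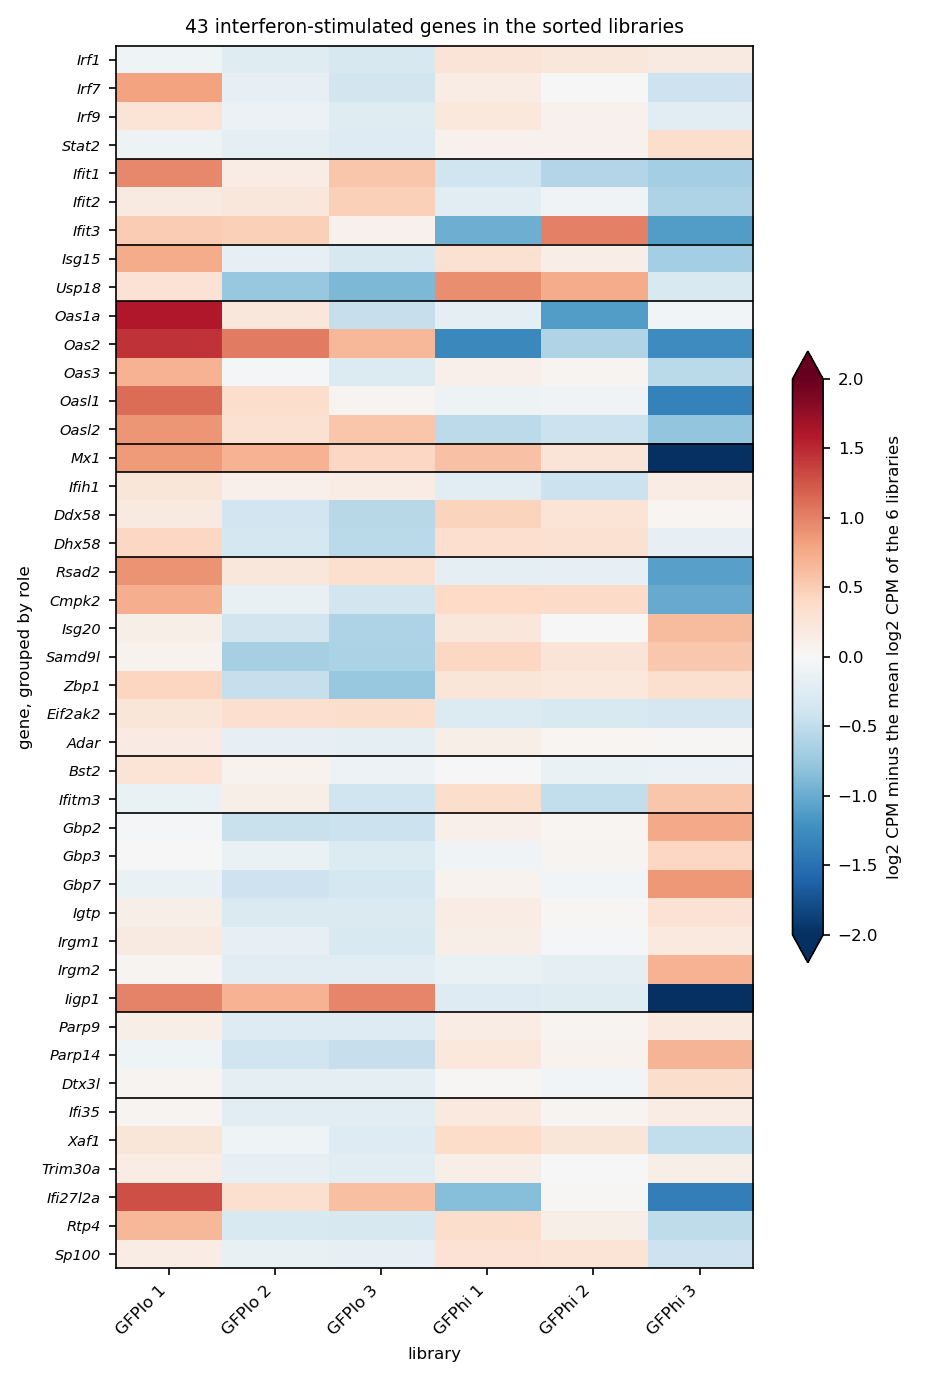
Each row is 1 of the 43 members tested and each column 1 of the 6 sorted libraries. Color gives log2 CPM minus the mean log2 CPM of the 6 libraries, cut at -2 and 2; GFPlo replicate 1 is higher than the other GFPlo libraries for 40 members, and GFPhi replicate 3 is high for the GBP, *Irgm2* and PARP rows and low for the IFIT, OASL and *Mx1* rows.

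Members moved together within the GFPlo group. GFPlo replicate 1 was the highest of the 3 GFPlo libraries for 40 of 43 members (93.0%), beside 38.9% of all genes tested, and the highest of all 6 libraries for 21 members (48.8%), beside 10.6% of all genes. Its *Irf7* was at 51.5 CPM, against 26.2 and 22.8 CPM in the other GFPlo libraries and 22.2 to 32.6 CPM in GFPhi libraries. *Isg15* was at 25.9 CPM there, against 13.8 and 12.4 CPM, and at 19.2, 17 and 9.68 CPM in GFPhi libraries, so the groups overlap (log2 fold change -0.18, adjusted p = 0.76). *Oas1a* was at 9.62 CPM there, against 3.70 and 2.32 CPM, and at 1.47 to 3.05 CPM in GFPhi libraries (-1.09, adjusted p = 0.24). The members not highest in it were *Eif2ak2*, *Ifit2* and *Ifitm3*. Summed markers of plasmacytoid dendritic cells were at 579, 601 and 633 CPM in GFPlo replicates 1, 2 and 3, and markers of macrophages and monocytes at 16.1, 17.01 and 17.1 CPM. Their part in the levels of GFPlo replicate 1 was not tested. In GFPlo libraries *Siglech*, *Klk1* and *Cd209d* were at 0. In GFPlo replicate 1 *Ifng* was at 0.481 CPM, against 0.0699 and 0.193 CPM in GFPlo replicates 2 and 3. All GFPhi libraries were higher, at 0.661, 0.785 and 0.782 CPM. The value of GFPlo replicate 2 is below 3 counts (0.105 CPM). The part of *Ifng* was not tested.

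GFPhi replicate 3 stood at either end for many members, and for many of all genes tested. It was the highest of all 6 libraries for 13 members, *Gbp2*, *Gbp3*, *Gbp7*, *Igtp*, *Irgm1*, *Irgm2*, *Parp9*, *Parp14*, *Dtx3l*, *Stat2*, *Samd9l*, *Isg20* and *Ifitm3*, and the lowest of all 6 for 17, among them *Isg15*, *Irf7*, *Mx1*, *Cmpk2*, *Rsad2*, *Rtp4*, *Ifit1*, *Ifit2*, *Ifit3*, *Oasl1*, *Oasl2* and *Iigp1*. These are 30.2% and 39.5% of the members, beside 28.8% and 28.4% of all genes. *Gbp7* was at 180.2 CPM in it, against 103 and 95.3 CPM in the other GFPhi libraries, and *Irgm2* at 40.3 CPM, against 22.7 and 21.9 CPM. *Mx1* was at 0.596 CPM, against 6.32 and 4.98 CPM, and *Cmpk2* at 9.57 CPM, against 25.3 and 25.1 CPM. *Ifi27l2a* was at 0.968 CPM, against 1.40 and 2.56 CPM, and at 3.14 to 6.14 CPM in GFPlo libraries. *Adar* (164.9, 155 and 154 CPM in GFPhi libraries) and *Bst2* (112.9, 103 and 105 CPM) showed no such split. Of the 7 GBP and IRG genes, 6 had log2 fold changes above 0 in GFPhi against GFPlo and none was called. Without GFPhi replicate 3, *Irgm2* was at -0.025, *Gbp7* was called at 0.31 (adjusted p = 0.032) and *Iigp1* at -1.14 (adjusted p = 0.0048).

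In the genotypes, *Lmo2*Tg library A was the higher of its pair for 37 of 44 members (84.1%), beside 53.7% of all genes tested. *Irf9* was at 78.5 CPM in A and 60.8 CPM in B, *Irgm1* at 69.9 and 49.1 CPM, and *Sp100* at 156 and 120 CPM. *Lmo2* itself was at 41.4 CPM in A and 100.4 CPM in B. The pairs of *Lmo2*Tg;*p21*-/- and of *p21*-/- libraries were split more evenly. In *Lmo2*Tg;*p21*-/- replicate 1, 26 of 44 members were higher (59.1%, beside 50.45% of all genes). In *p21*-/- replicate 1, 25 were higher (56.8%, beside 50.2%). Among wild-type libraries, replicate 1 was the highest for 23 members (52.3%, beside 32.45% of all genes). Wild-type replicate 3 was the lowest for 24 (54.55%, beside 40.8%). None of the 5 interferon receptor genes tested was called in edgeR in GFPhi against GFPlo. The further interferon-stimulated genes held 0 that rose and 4 that fell (*Ube2l6*, *Lgals9*, *Slfn2* and *Ly6a*) of 43 tested in that comparison, where 14.9% of all genes were called.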

How the data were processed

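The authors deposited 2 tables of raw read counts per protein-coding gene, 1 for the sorted and 1 for the genotype experiment; the submitters' notes name STAR 2.4.2a, featureCounts and limma with mm10. The strand setting is not given in the sources used here and may differ between the tables, so levels were not compared between them, and genes that overlap on opposite strands or have close paralogs (OAS, IFIT, GBP, IRG) are uncertain. Of 16 labelled samples, 15 libraries were used; 1 sample had no matching column and 1 column matched no label. Total counts per library set the precision, and floors of 3 counts cover counting error only.

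Counts were tested with edgeR 4.0.16 (R 4.3.3; TMM, filterByExpr with a minimum count of 10 and total of 15, quasi-likelihood test, 1 fit per experiment), with Benjamini-Hochberg adjustment over all genes tested and a call at an adjusted p under 0.05. Standard errors were derived from the F statistic. The fits were tested on simulated data with 200 genes changed. Alternatives were DESeq2 1.42.0, limma-voom 3.58.1, other scaling and filters, a fold threshold, a replicate block and leaving out libraries. Positions and exon lengths came from GENCODE M21 (98.57% of gene IDs matched), and promoters from RefSeq (GRCm38.p6).

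Every member was described by role. Values per library were given for called members with the largest changes (up to 8 in each direction) and for a fixed set of classical targets. The receptor chains were named from outside the members. One further gene is not reported here. Members and lists were chosen with earlier results of these data known.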

Additional observations from a re-analysis of the deposited data

Results flagged for a closer look

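The effect of the *Lmo2* transgene on *Irf1* differed with p21 in the test of the interaction (-1.431 on the log2 scale, standard error 0.289, adjusted p = 0.043 in edgeR). The log2 fold change was 1.16 in *Lmo2*Tg against wild-type, where both transgenic libraries were higher than all 3 wild-type libraries, and -0.27 in *Lmo2*Tg;*p21*-/- against *p21*-/-, where the libraries overlapped. Without single libraries the interaction ran from -1.78 to -0.96, and 7 of 9 such fits had an adjusted p above 0.05, as had limma-voom (-1.37, adjusted p = 0.060).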

How the results depend on the processing

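Of 501 values of called members under alternatives, 414 stayed past the threshold, 87 did not and 0 changed direction, and 22 of 45 calls were never lost. In GFPhi against GFPlo, 12 members were called with DESeq2, 1 with a fold above 2 as well and 2 with a replicate block, and 2 to 15 without single libraries. In *Lmo2*Tg against wild-type, 6 passed with the fold threshold, and without single libraries 12 to 19 passed and the median over the members ran from -0.063 to 0.104. In *Lmo2*Tg;*p21*-/- against *Lmo2*Tg, 8 were called with no filter, 6 with DESeq2 and 0 to 2 without single libraries (median 0.051 to 0.188). In *Lmo2*Tg;*p21*-/- against *p21*-/-, 3 passed with the fold threshold and 11 to 15 without single libraries. In the interaction, 3 were called with no filter, 3 with DESeq2, 0 with limma-voom and 0 to 2 without single libraries (median -0.084 to 0.084). Apart from the fit without GFPhi replicate 3, the share of all genes called under an alternative was not counted. These counts therefore cannot be read as particular to the members. The cause of these differences was not tested. A lone library left in a group is assumed to vary like the other groups.

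Samples with the same replicate number had deviations that correlated at -0.079 to 0.099. With 2 or 3 libraries in a group this can neither show nor exclude pairs, and the main fits took the numbers as unpaired. GFPhi and GFPlo cells came from the same cohorts of mice, but no source used here ties a replicate number to a cohort. The replicate block gave 2 calls in GFPhi against GFPlo, where *Irf1* (adjusted p = 0.052), *Stat2* (0.14), *Ifit1* (0.082) and *Oasl2* (0.064) kept their direction and were not called, 0 in *p21*-/- against wild-type and 19 in *Lmo2*Tg;*p21*-/- against *p21*-/-. Not every sorted sample correlated best with its own number. No paired analysis was possible for comparisons with *Lmo2*Tg because its columns carry no usable number.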
